A study of Mus musculus with 9 samples.

Results

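The laminin-binding integrins examined here were 7 genes: the integrin alpha chains Itga3, Itga6 and Itga7, the beta chain Itgb4, the tetraspanin Cd151 and the plakins Plec and Dst. They were chosen by name, with earlier results of these data known. All 7 were among the 19938 genes measured, each by 1 probe set. They were compared in a mouse mammary tumor line, D2.OR, grown in 3D culture and measured on 3 arrays per group: fibrillar collagen I, non-fibrillar collagen I and, by the sample titles, Matrigel, an extract of basement membrane rich in laminin. The growth label of the Matrigel arrays repeats the non-fibrillar collagen wording, and these arrays carry later accession numbers, so the Matrigel group rests on its titles and a batch that goes with it cannot be told apart from it. All arrays came from 1 cell line, and the labels do not tie replicates to separate cultures. The p-values therefore rest on the spread among the arrays of a group, and that spread may be only technical. The design text of the series names the collagen comparison, and its title relates fibrillar collagen to how pregnancy protects against mammary cancer.

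Integrins are receptors of paired alpha and beta chains that join the extracellular matrix to the cytoskeleton. The alpha 3, alpha 6 and alpha 7 chains pair with integrin beta 1 to bind laminins, the main adhesive proteins of basement membranes, and alpha 6 also pairs with beta 4. The alpha 6 beta 4 integrin anchors epithelial cells through hemidesmosomes, in which plectin (Plec) and dystonin (Dst, also known as BPAG1) tie its cytoplasmic side to keratin filaments. Cd151 is a membrane protein that binds the laminin-binding integrins directly. In the mammary gland these receptors hold the epithelium on its basement membrane.

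Promoter sequences (RefSeq, build GRCm38.p6) were at hand for 3 of the 7 genes. They are shown because these genes stand for the 3 patterns of expression described next: Dst was lowest in non-fibrillar collagen, Itga3 lowest in Matrigel and Cd151 highest in non-fibrillar collagen. Each was read on the strand of its gene, ending at the base before a transcript start, except that the Itga3 stretch ends before the outermost base of the gene. Both Dst windows lie inside the span of that gene, before separate internal starts. Capitals mark the motif GGGCGG, the GC box bound by Sp family factors, on either strand.
Itga3, chr11:95076845-95076964, minus strand: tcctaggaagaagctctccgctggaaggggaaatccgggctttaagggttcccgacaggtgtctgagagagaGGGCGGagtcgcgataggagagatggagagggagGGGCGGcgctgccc
Cd151, chr7:141467112-141467361, plus strand: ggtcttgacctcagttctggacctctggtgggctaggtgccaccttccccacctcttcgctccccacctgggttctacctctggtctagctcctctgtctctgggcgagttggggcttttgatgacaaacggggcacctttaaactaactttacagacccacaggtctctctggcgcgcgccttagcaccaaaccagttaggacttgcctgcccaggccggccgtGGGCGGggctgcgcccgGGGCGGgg
Dst, first start listed, chr1:34011345-34011594, plus strand: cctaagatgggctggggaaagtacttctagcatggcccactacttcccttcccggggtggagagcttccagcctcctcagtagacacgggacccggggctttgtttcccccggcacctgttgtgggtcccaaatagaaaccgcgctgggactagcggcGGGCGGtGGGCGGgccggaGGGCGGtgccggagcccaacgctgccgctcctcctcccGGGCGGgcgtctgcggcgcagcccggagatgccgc
Dst, second start listed, chr1:34160010-34160259, plus strand: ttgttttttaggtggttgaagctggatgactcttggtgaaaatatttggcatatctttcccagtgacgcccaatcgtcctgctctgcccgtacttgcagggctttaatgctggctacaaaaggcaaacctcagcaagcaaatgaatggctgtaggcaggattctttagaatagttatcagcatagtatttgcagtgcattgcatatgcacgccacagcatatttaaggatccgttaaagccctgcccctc

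The GC box occurred 2 times in the Itga3 stretch, 2 times in the Cd151 window, 4 times before the first Dst start and 0 times before the second. The whole 250-base Itga3 window held 3. The second listed starts of Itga3 and Cd151, inside those genes and not printed, had 1 and 0 GC boxes in windows with 50.8% and 58.0% G and C. It occurred in 32.7% of 32851 promoter windows of 250 bases. The AP-1 motif TGANTCA and the TEAD motif GGAATG, searched on both strands and present in 6.75% and 12.6% of those windows, were in none of the printed sequences. The Dst starts differed in base composition, with 68.8% and 45.2% G and C against a median of 52.4% over all windows. The array gives 1 value for Dst and does not show which start was used. These matches are letters in a window and were not tied to the expression values.

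The 7 genes followed 3 patterns over the matrices. Itga3, Itga6 and Itgb4 had their lowest means in Matrigel and their highest in fibrillar collagen. Itga7, Plec and Dst had their lowest means in non-fibrillar collagen, with fibrillar collagen and Matrigel close to each other. Cd151 ran the other way, with its highest mean in non-fibrillar collagen. All differences were below 1.5-fold on a background-corrected, quantile-normalized log2 scale. In such bulk RNA, fewer cells of a type and less RNA per cell cannot be told apart.

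**Figure D1:**
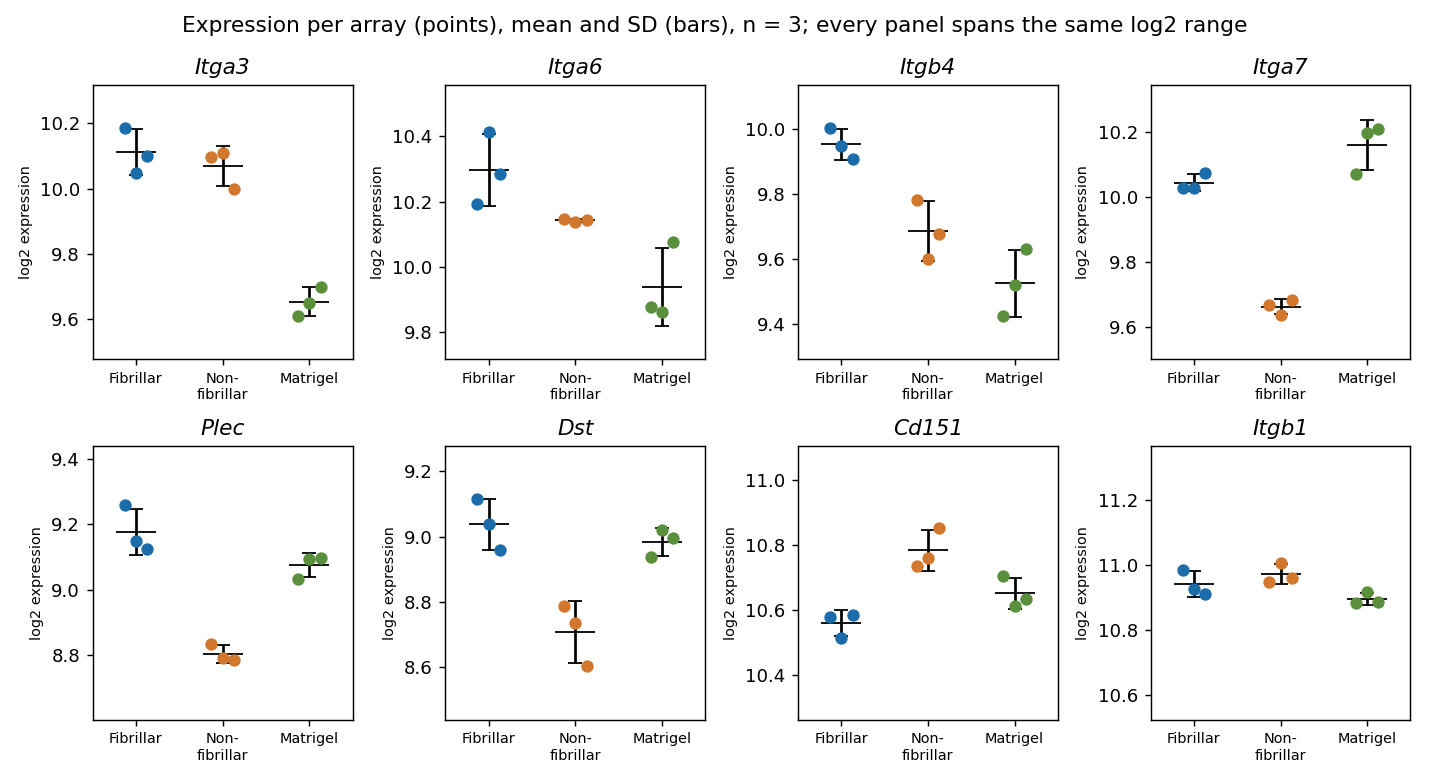
Log2 expression (y axis) of the 7 genes and of Itgb1 on each array, by culture matrix (x axis); points are arrays, and bars are the mean and SD of 3 arrays. Itga3, Itga6 and Itgb4 sit lowest in Matrigel, Itga7, Plec and Dst lowest in non-fibrillar collagen, and Cd151 highest there.

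Among the receptors of the first pattern, Itga3, the alpha chain of the epithelial laminin receptor alpha 3 beta 1, read 10.19, 10.05 and 10.10 log2 units on the fibrillar arrays 1 to 3, 10.10, 10.11 and 10.0002 on the non-fibrillar arrays and 9.61, 9.65 and 9.70 on the Matrigel arrays. Every collagen array lay above every Matrigel array, while the collagen groups overlapped. Itga3 was 1.37-fold higher in fibrillar collagen than in Matrigel (log2 0.46 ± 0.051 SE, n = 3 arrays per group, adjusted p = 0.0014) and 1.33-fold higher in non-fibrillar collagen than in Matrigel (0.42 ± 0.051, adjusted p = 6.7e-04). Both calls held whichever array was left out (adjusted p at most 0.0099 and 0.0045). Between the collagens the difference was 0.04 ± 0.052, with a 95% interval from -0.08 to 0.17 (adjusted p = 0.68).

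Itga6, which pairs with beta 1 or beta 4, read 10.19, 10.41 and 10.28 in fibrillar collagen, 10.15, 10.14 and 10.15 in non-fibrillar collagen and 9.88, 9.86 and 10.08 in Matrigel. No groups overlapped, but the third Matrigel array lay close to the non-fibrillar values. It was 1.28-fold higher in fibrillar collagen than in Matrigel (0.36 ± 0.070, adjusted p = 0.022). That call was lost without fibrillar replicate 2 (adjusted p = 0.070) or 3 (0.066), without Matrigel replicate 1 (0.075) or 2 (0.088), and with only the 6 arrays of those groups in the fit (0.080). Non-fibrillar collagen lay between them, at 0.21 ± 0.070 above Matrigel (adjusted p = 0.086) and 0.15 ± 0.059 below fibrillar collagen (adjusted p = 0.20), and neither step passed. The former passed without Matrigel replicate 3 (adjusted p = 0.029), after centring on array medians (0.041) and when only the brighter genes were tested (0.039).

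Itgb4, the beta chain that pairs with alpha 6 alone, read 10.001, 9.95 and 9.91 in fibrillar collagen, 9.78, 9.60 and 9.68 in non-fibrillar collagen and 9.43, 9.52 and 9.63 in Matrigel. The fibrillar arrays stood above all others, and the other groups overlapped. Itgb4 was 1.34-fold higher in fibrillar collagen than in Matrigel (0.43 ± 0.064, adjusted p = 0.0071; at most 0.036 with any array left out). It was 1.20-fold higher in fibrillar than in non-fibrillar collagen (0.27 ± 0.056, adjusted p = 0.043), a call that was lost whichever of the 6 arrays was left out, with adjusted p from 0.054 to 0.13. Non-fibrillar collagen was 0.16 ± 0.064 above Matrigel (adjusted p = 0.15). Its order over the matrices was thus that of Itga6. The log2 difference between Itgb4 and Itga6 within an array moved by 0.11, 0.07 and -0.05 in the 3 comparisons. These were fibrillar minus non-fibrillar, fibrillar minus Matrigel and non-fibrillar minus Matrigel. The groups overlapped each time (two-sided exact permutation p = 0.4, 0.7 and 0.4). The smallest p that 3 against 3 arrays allow is 0.1, so this test cannot show that the genes move alike. The pair was chosen after its values were seen.

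In the second pattern, Itga7, the alpha chain of the laminin receptor best known from muscle, read 10.03, 10.03 and 10.07 in fibrillar collagen, 9.67, 9.64 and 9.68 in non-fibrillar collagen and 10.07, 10.20 and 10.21 in Matrigel. The non-fibrillar arrays lay well below all the others, and fibrillar replicate 3 reached the lowest Matrigel array. Itga7 was 1.30-fold lower in non-fibrillar than in fibrillar collagen (fibrillar minus non-fibrillar 0.38 ± 0.035, adjusted p = 0.0058) and 1.41-fold lower than in Matrigel (-0.49 ± 0.046, adjusted p = 1.5e-04). Both calls held with any array left out (adjusted p at most 0.044 and 0.0015). Fibrillar collagen and Matrigel differed by -0.11 ± 0.046 (adjusted p = 0.23; 95% interval -0.22 to -0.01, not adjusted). Of 6 muscle markers 0 passed in any comparison. Of all genes, 6.4% were called between the collagens, 3.82% in fibrillar collagen against Matrigel and 13.8% in non-fibrillar collagen against Matrigel. With so few markers, a count of 0 is not a result about muscle. Only 2 of these markers lay above the median gene, and their summed linear signal was 354 to 393 over all arrays.

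Itga7 and Itga3 both pair with beta 1, but Itga7 had its lowest mean in non-fibrillar collagen and Itga3 in Matrigel. The log2 difference of Itga7 from Itga3 within an array was lower by 0.91 in non-fibrillar collagen than in Matrigel, a change of -0.91 with SDs of 0.081 and 0.042, and it changed by -0.57 between fibrillar collagen and Matrigel and by 0.34 between the collagens. The groups did not overlap in any of these comparisons, and each had a two-sided exact permutation p of 0.1, the smallest that 3 against 3 arrays allow (0.2 after Benjamini-Hochberg adjustment over 6 such tests). These pairs of genes were chosen after their values were seen.

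The plakins followed Itga7. Plec, encoding the linker plectin, read 9.26, 9.15 and 9.13 in fibrillar collagen, 8.83, 8.79 and 8.78 in non-fibrillar collagen and 9.03, 9.09 and 9.10 in Matrigel. No groups overlapped, with non-fibrillar collagen lowest and Matrigel just under the fibrillar arrays. Plec was 1.30-fold higher in fibrillar than in non-fibrillar collagen (0.37 ± 0.046, adjusted p = 0.011), a call lost without fibrillar replicate 2 (adjusted p = 0.052) or non-fibrillar replicate 2 (0.060). It was 1.21-fold lower in non-fibrillar collagen than in Matrigel (-0.27 ± 0.046, adjusted p = 0.0039; at most 0.019 with any array left out). Fibrillar collagen was 0.10 ± 0.046 above Matrigel (adjusted p = 0.27).

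Dst, the hemidesmosomal and cytoskeletal linker dystonin, read 9.11, 9.04 and 8.96 in fibrillar collagen, 8.79, 8.74 and 8.60 in non-fibrillar collagen and 8.94, 9.02 and 8.99 in Matrigel. The non-fibrillar arrays were below all the others, and the other groups overlapped. It was 1.26-fold higher in fibrillar than in non-fibrillar collagen (0.33 ± 0.063, adjusted p = 0.035), but this call was lost whichever array was left out, with adjusted p from 0.072 to 0.11. Against Matrigel, non-fibrillar collagen was 1.21-fold lower (-0.28 ± 0.059, adjusted p = 0.012), lost only without Matrigel replicate 2 (0.054) among the refits without 1 array. Fibrillar collagen and Matrigel differed by 0.05 ± 0.059 (95% interval -0.08 to 0.18, adjusted p = 0.68).

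Cd151, the tetraspanin partner, read 10.58, 10.52 and 10.59 in fibrillar collagen, 10.73, 10.76 and 10.85 in non-fibrillar collagen and 10.70, 10.61 and 10.64 in Matrigel. No groups overlapped, and the order was the reverse of that of Plec. Fibrillar collagen was 1.17-fold below non-fibrillar collagen (-0.22 ± 0.045, adjusted p = 0.041). This call was lost whichever array was left out (adjusted p from 0.080 to 0.12), after quantile normalization again (0.093) and with replicate number as a block (0.051). Matrigel lay between them, at 0.09 ± 0.047 above fibrillar collagen (adjusted p = 0.35) and 0.13 ± 0.047 below non-fibrillar collagen (adjusted p = 0.10).

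**Figure D2:**
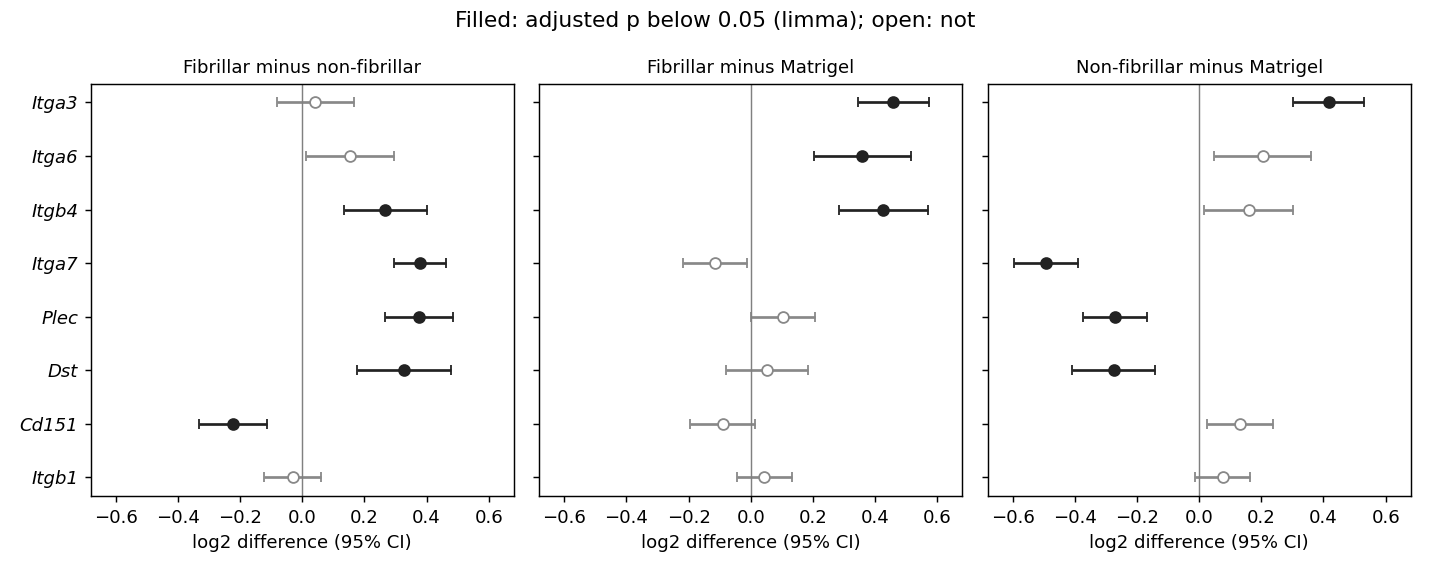
Log2 differences (x axis, limma estimate with 95% interval, not adjusted for the number of genes) of the 7 genes and Itgb1 in the 3 comparisons, with filled points where adjusted p was below 0.05. Fibrillar minus non-fibrillar is called for 4 genes on the positive side and for Cd151 on the negative side, and non-fibrillar minus Matrigel is positive for Itga3 and negative for Itga7, Plec and Dst.

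Counted together, 4 of the 7 genes rose and 1 fell in fibrillar relative to non-fibrillar collagen, where 6.4% of all genes were called (2.71% higher, 3.69% lower). Against Matrigel, 3 were higher and 0 lower in fibrillar collagen (background 3.82%; 1.45% higher, 2.37% lower), and 1 was higher and 3 were lower in non-fibrillar collagen (background 13.8%; 6.75% higher, 7.07% lower). Groups did not overlap for 6, 5 and 6 of the 7 genes in these comparisons, against 25.2%, 20.4% and 28.4% of all genes. For each of the 7 genes, 81% to 96% of all genes had a lower mean level. Testing only genes above the median level called 2211, 1264 and 3428 genes, more than testing all genes, so calls were more frequent among bright genes. Shares without overlap were not computed for bright genes alone. The median difference over the 7 genes was 0.27, 0.10 and 0.13, and over all genes 0.0080, 0.0028 and 6e-04. Leaving out 1 array left 1 or 2 of the 5 calls between the collagens, 2 or 3 calls for fibrillar collagen against Matrigel and 3 to 5 for non-fibrillar collagen against Matrigel. Of all genes tested, the collagen comparison called 541 up and 736 down in fibrillar collagen (421 and 968 after centring on array medians, but 640 and 612 after quantile normalization again), 289 and 473 in fibrillar collagen against Matrigel (373 and 366 after quantile normalization again), and 1345 and 1410 in non-fibrillar collagen against Matrigel (1841 and 1092 after centring). The comparisons share groups, so their counts are not independent. The 7 genes were chosen with earlier results of these data known, so setting their counts beside those of all genes is not a test.

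The beta 1 chain, the partner of alpha 3, alpha 6 and alpha 7, did not pass in any comparison. Itgb1 read 10.94 ± 0.040 (SD, n = 3) in fibrillar collagen, 10.97 ± 0.031 in non-fibrillar collagen and 10.90 ± 0.019 in Matrigel. The largest of its differences was 0.08 ± 0.039, between non-fibrillar collagen and Matrigel (95% interval -0.01 to 0.16, adjusted p = 0.28). Of 22 other integrin chains, Itgb1 included, 2 rose and 1 fell in fibrillar relative to non-fibrillar collagen. In fibrillar collagen against Matrigel 1 was higher and 2 lower, and in non-fibrillar collagen against Matrigel 1 was higher and 4 lower. In the order of these counts, 13.6%, 13.6% and 22.7% of the list were called, against 6.4%, 3.82% and 13.8% of all genes. The largest called difference in each comparison was that of Itga2, the alpha chain of a collagen receptor, with means of 7.18 in fibrillar collagen, 7.85 in non-fibrillar collagen and 6.51 in Matrigel. Its level relative to Matrigel was 1.35 ± 0.052 in non-fibrillar and 0.68 ± 0.052 in fibrillar collagen (adjusted p = 1.5e-06 and 2.6e-04). Like Itga3 it was lowest in Matrigel, but unlike Itga3 it also fell from non-fibrillar to fibrillar collagen (-0.67 ± 0.045, adjusted p = 0.0041). The RGD-binding chains Itgav and Itga5 were higher in fibrillar than in non-fibrillar collagen (0.27 ± 0.044 and 0.23 ± 0.049, adjusted p = 0.022 and 0.045), and both lost the call whichever array was left out. Against Matrigel, Itga1, another collagen-binding alpha chain, was lower in non-fibrillar collagen (-0.52 ± 0.075). Itga1 read 5.15 to 5.91 over the arrays, below the median gene, which had a mean of 6.44. Itgb2, the leukocyte beta chain, was lower in non-fibrillar collagen (-0.22 ± 0.037) and in fibrillar collagen (-0.16 ± 0.037), and so was Itgb8, which pairs with alpha V (-0.51 ± 0.091 and -0.41 ± 0.091). Itga5 was also lower in non-fibrillar collagen than in Matrigel (-0.29 ± 0.052). Itgb2 and Itgb8 each lost the call for fibrillar collagen in 5 of 6 refits (adjusted p up to 0.12). The calls of Itgb8 and Itga5 for non-fibrillar collagen against Matrigel were not followed through the refits. Itgb2 read 6.47 to 6.75 over the arrays, close to the median gene.

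Of the ligands, 10 of 11 laminin chains were measured. Between the collagens 4 were higher in fibrillar collagen and 0 lower, with a median difference of 0.10 over the measured chains. They included Lamb2 (0.54 ± 0.038), Lama5 (0.46 ± 0.043) and Lama3 (0.45 ± 0.047), with adjusted p from 0.0041 to 0.0078. The other was Lamc1 (0.30 ± 0.044, adjusted p = 0.017), whose call was not followed through the refits without 1 array. The beta 2 chain Lamb2 and the epithelial alpha 3 chain Lama3 were also lower in non-fibrillar collagen than in Matrigel (-0.55 ± 0.049 and -0.44 ± 0.053), and so had their lowest means in non-fibrillar collagen, as Itga7 did. Fibrillar collagen exceeded Matrigel for Lama5 (0.32 ± 0.044) and Lamb1 (0.27 ± 0.052, lost in 3 of 6 refits). Laminin chains called were 40% between the collagens, 20% in fibrillar collagen against Matrigel and 20% in non-fibrillar collagen against Matrigel. Over all genes the shares were 6.4%, 3.82% and 13.8%.

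Among 5 other plakins, the linker family of Plec and Dst, 2 were higher in fibrillar than in non-fibrillar collagen and the same 2 were lower in non-fibrillar collagen than in Matrigel. These were desmoplakin Dsp, which joins keratin to desmosomes (0.53 ± 0.055 and -0.59 ± 0.056), and epiplakin Eppk1 (0.48 ± 0.050 and -0.37 ± 0.047). Dsp read 10.55, 10.41 and 10.41 in fibrillar collagen, 9.97, 9.95 and 9.86 in non-fibrillar collagen and 10.46, 10.52 and 10.59 in Matrigel. The non-fibrillar arrays were again below all others, while Eppk1 lost its collagen call without fibrillar replicate 3 (adjusted p = 0.053). Of 6 other hemidesmosome and keratin genes, including Col17a1, 0 passed between the collagens. Col17a1 (6.08 to 6.18) and Krt5 (5.55 to 5.87) were below the median gene, which had a mean of 6.44, on every array. In the comparisons with Matrigel, the keratin Krt18 was higher and the basal keratin Krt14 lower, both in non-fibrillar (0.28 ± 0.040 and -0.30 ± 0.039) and in fibrillar collagen (0.23 ± 0.040 and -0.17 ± 0.039). In fibrillar collagen Krt18 lost the call without Matrigel replicate 2 (adjusted p = 0.059) and Krt14 in 5 of 6 refits (up to 0.11) and with the block. Other plakins called were 40% between the collagens, 0% in fibrillar collagen against Matrigel and 40% in non-fibrillar collagen against Matrigel. For the hemidesmosome and keratin list the shares were 0%, 33.3% and 33.3%, and over all genes 6.4%, 3.82% and 13.8%.

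**Figure D3:**
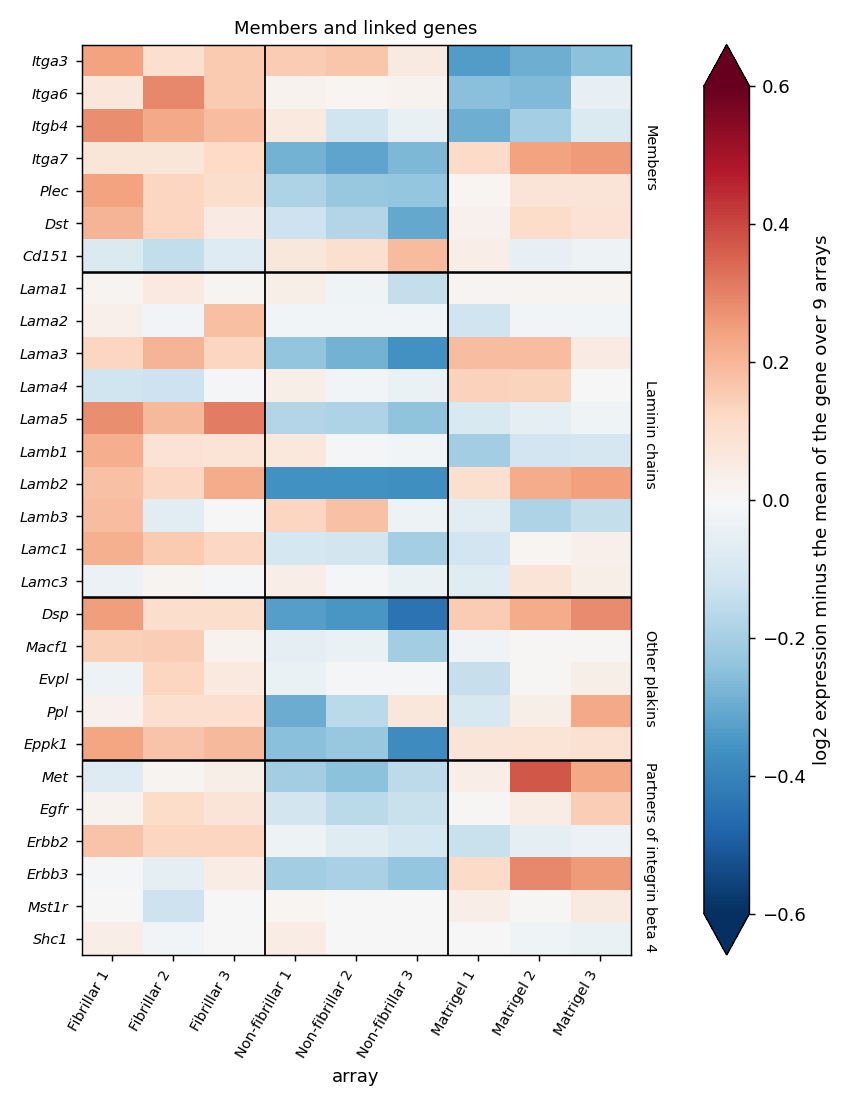
Log2 expression minus the mean of each gene over 9 arrays (colour) for the 7 genes, 10 laminin chains, 5 other plakins and 6 receptors or adaptors that work with integrin beta 4 (rows), by array (columns). The non-fibrillar arrays are low for Itga7, Plec, Dst, Lama3, Lamb2, Dsp and Eppk1, and the Matrigel arrays for Itga3, Itga6 and Itgb4.

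Of 6 receptors and adaptors that act with integrin beta 4, 3 were higher in fibrillar than in non-fibrillar collagen and 0 lower. They were the growth factor receptors Erbb2 (0.21 ± 0.037), Egfr (0.21 ± 0.038) and Erbb3 (0.20 ± 0.039), with adjusted p from 0.028 to 0.034; Erbb2 and Erbb3 lost the call whichever array was left out, Egfr in 5 of 6 refits, and with replicate number as a block Egfr and Erbb3 were at 0.063 and 0.064. Against Matrigel, non-fibrillar collagen had lower Erbb3 (-0.43 ± 0.052), Met, the hepatocyte growth factor receptor (-0.42 ± 0.076), and Egfr (-0.20 ± 0.047; lost in 3 of 6 refits). Fibrillar collagen had higher Erbb2 (0.22 ± 0.043) and lower Erbb3 (-0.23 ± 0.052) than Matrigel, each lost in 5 of 6 refits. Among 6 other laminin receptors, the syndecan Sdc1 was lower in fibrillar collagen than in non-fibrillar collagen (-0.24 ± 0.039; lost in 5 of 6 refits) and than in Matrigel (-0.41 ± 0.041). In non-fibrillar collagen Sdc1 and dystroglycan Dag1 were below Matrigel (-0.16 ± 0.041 and -0.23 ± 0.063), with the call lost in 4 and 5 of 6 refits. Partners of integrin beta 4 called were 50% between the collagens, 33.3% in fibrillar collagen against Matrigel and 50% in non-fibrillar collagen against Matrigel. For the other laminin receptors the shares were 16.7%, 16.7% and 33.3%, and over all genes 6.4%, 3.82% and 13.8%.

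Among 24 other tetraspanins and partners of the Cd151 family, 1 rose and 2 fell in fibrillar relative to non-fibrillar collagen, 1 was higher and 2 lower in fibrillar collagen than in Matrigel, and 3 higher and 4 lower in non-fibrillar collagen than in Matrigel. In that order, 12.5%, 12.5% and 29.2% of this list were called, against 6.4%, 3.82% and 13.8% of all genes. Tspan9 (-0.22 ± 0.049) and Tspan6 (-0.46 ± 0.092) fell in fibrillar relative to non-fibrillar collagen, as was Cd151, and Tspan5 was higher (0.32 ± 0.054). Tspan9 lost that call whichever array was left out and the others in 5 of 6 refits. Against Matrigel, Tspan17 and the tetraspanin partner Igsf8 were lower in non-fibrillar (-0.36 ± 0.050 and -0.28 ± 0.046) and in fibrillar collagen (-0.33 ± 0.050 and -0.20 ± 0.046). Tspan9 was higher in non-fibrillar collagen (0.33 ± 0.058) and Tspan2 in fibrillar collagen (0.22 ± 0.051). In fibrillar collagen Igsf8 lost its call with any array left out and Tspan2 in 5 of 6 refits. Of 19 integrin activators and focal adhesion genes, 1 was higher and 1 lower in each comparison that involved fibrillar collagen, and 2 were higher and 1 lower in non-fibrillar collagen against Matrigel. The share called was 10.5% between the collagens, 10.5% in fibrillar collagen against Matrigel and 15.8% in non-fibrillar collagen against Matrigel. Over all genes it was 6.4%, 3.82% and 13.8%. Fermt1, the epithelial kindlin that activates beta 1 integrins, had means of 5.54 in fibrillar collagen, 6.08 in non-fibrillar collagen and 5.26 in Matrigel. Between the collagens its difference was negative (-0.54 ± 0.098; lost in 5 of 6 refits) and higher in non-fibrillar collagen than in Matrigel (0.81 ± 0.113). The adaptor Tns1 was higher in fibrillar than in non-fibrillar collagen (0.37 ± 0.048). This call was lost in 4 of 6 refits and when the probe sets of each gene were averaged. The kinase Src was higher and the adaptor Lims2 lower than in Matrigel, in non-fibrillar (0.37 ± 0.066 and -0.49 ± 0.056) and in fibrillar collagen (0.29 ± 0.066 and -0.30 ± 0.056, both lost with any array left out).

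Within the 7 genes, likeness of pattern was measured as the root mean square difference of log2 values over the 9 arrays after centring each gene on its mean. Plec and Dst were the closest pair (0.045 log2 units), followed by Itga6 and Itgb4 (0.095) and by Itga7 and Plec (0.12), and Itga3 and Itga7 were the farthest apart (0.38). The search for the nearest other genes left out the 7 themselves, predicted gene models, and olfactory and vomeronasal receptors. Among the rest, the nearest to Itga7 were Mroh1 (0.029), the growth factor progranulin Grn (0.034) and the taurine transporter Slc6a6 (0.034). The nearest to Plec were Slc12a7, Dlg5 and Igsf3 (0.032 to 0.038), and to Dst Srcap, Tmem131 and Prrc2c (0.026 to 0.033). Itga3 lay nearest to Etv5, an ETS factor, Ngef and Lgr6 (0.051 to 0.060), and Itgb4 to Flt1, Myh10 and Myof (0.068 to 0.073). The neighbours of Itga6 were Tnnc2, Dgkeos and Chrna9 (0.046 to 0.074), all with mean levels below the median gene, and those of Cd151 were Mrpl12, Reep5 and Trappc1 (0.020 to 0.022). A gene with small changes, such as Cd151 with an SD of 0.10 over the arrays, has near neighbours more easily than one with large changes.

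Markers checked the cell type. Of 8 epithelial markers 5 were above the median gene, with Krt8 at 13.12 to 13.33 and Cdh1 at 9.001 to 9.12 over the arrays, while Epcam (5.84 to 6.24), Krt19 (5.14 to 5.45) and Cldn4 (5.71 to 5.97) were below it. The summed linear signal of this list was 18963 to 20119 in fibrillar collagen, 19552 to 20255 in non-fibrillar collagen and 16674 to 16875 in Matrigel, lowest where Itga3, Itga6 and Itgb4 were lowest. Its largest change was that of the simple-epithelial keratin Krt7, which was above Matrigel by 1.20 ± 0.039 in non-fibrillar and 0.90 ± 0.039 in fibrillar collagen, and its fibrillar minus non-fibrillar difference was -0.30 ± 0.034 (lost without fibrillar replicate 3). Of the 6 lists of other cell types, 4 had sums in non-fibrillar collagen, where Itga7, Plec and Dst were lowest, below those of every other array. The 7 fibroblast markers gave 1875 to 2221, against 2612 to 2944 in fibrillar collagen and 3026 to 3487 in Matrigel. The 6 macrophage markers gave 551 to 600, against 636 to 727 and 801 to 884. The other sums with that order were those for 6 basal mammary markers (2628 to 2665 against 2850 to 2873 and 3083 to 3278) and for 3 measured Schwann cell markers (980 to 1110 against 1171 to 1273 and 1462 to 1502). Such linear sums are carried mainly by their brightest genes and do not show a list changing as a whole. Only 1 basal marker, Krt14, and 1 Schwann cell marker, Pmp22, lay above the median gene. The muscle sum in Matrigel (354 to 369) was below fibrillar collagen (375 to 393) and overlapped non-fibrillar collagen (362 to 382). The endothelial sum in non-fibrillar collagen (226 to 248) was below fibrillar collagen (249 to 257) and overlapped Matrigel (246 to 261). Of the fibroblast, macrophage, basal and Schwann cell lists, 14.3%, 33.3%, 0% and 0% were called between the collagens, against 6.4% of all genes. In fibrillar collagen against Matrigel the shares were 0%, 16.7%, 16.7% and 33.3%, against 3.82% of all genes. In non-fibrillar collagen against Matrigel they were 14.3%, 33.3%, 16.7% and 33.3%, against 13.8% of all genes. In these comparisons, 12.5%, 25% and 50% of the epithelial and 0%, 0% and 16.7% of the endothelial markers were called. The median log2 difference between the collagens was 0.04, 0.07, 0.04 and 0.13 over the fibroblast, macrophage, basal and Schwann cell lists. The genes called in these lists included the receptor Pdgfra (0.67 ± 0.095 between the collagens, lost in 4 of 6 refits), the lysosomal Cd68 (0.83 ± 0.081) and the myelin protein Pmp22, lower in non-fibrillar collagen than in Matrigel (-0.52 ± 0.060). The macrophage marker Cd14 went the other way and was highest in non-fibrillar collagen, with -0.37 ± 0.079 between the collagens (lost whichever array was left out) and 0.28 ± 0.073 against Matrigel (lost in 4 of 6 refits). The endothelial receptor Kdr was lower in non-fibrillar collagen than in Matrigel (-0.47 ± 0.085). The fibroblast genes Lum (3.21 to 3.51) and Dcn (4.32 to 4.58) and the macrophage genes Adgre1 (3.82 to 4.09) and Csf1r (4.72 to 4.84) were below the median gene, which had a mean of 6.44, on every array. Of 6 endothelial markers 0 lay above the median gene. The part of these other markers in the results for the 7 genes was not tested.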

How the data were processed

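RNA of 9 samples was measured on Affymetrix arrays. Per the submitters' processing notes, the authors used Affymetrix Power Tools and RMA, and what they deposited is 1 log2 value per probe set and array. Versions, settings and whether all arrays went through 1 normalization run were not stated. RMA gives all arrays nearly the same distribution, so a shift common to most genes would be lost. Column medians ran from 5.98 to 6.05. The number of arrays limits the precision.

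Of 35512 probe sets, 21789 had a single gene symbol in the platform annotation, 1621 several and 12102 were unlisted; only the first kind was used, with the brightest probe set per gene (19938 genes). Differences were fitted with limma 3.58.1 in R 4.3.3 (lmFit, eBayes; two-sided; Benjamini-Hochberg over all genes; threshold 0.05; ± is the standard error unless SD is given): the collagens on their own 6 arrays, comparisons with Matrigel on all 9. The script was tested on simulated data. Alternatives were other arrays in the fit, a replicate block, quantile normalization again, centring, a filter on dim genes, array weights, averaged probe sets, a trended and robust prior, threshold 0.01 and leaving out each array.

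Deviations of same-numbered collagen arrays from their group means correlated across genes (r = 0.22, 0.14 and 0.24), but no label pairs these arrays. The main fits did not pair them, and replicate number entered only as the block of an alternative fit. The members and lists were chosen with earlier results of these data known. Named genes were the 7 members, Itgb1, up to 3 called genes with the smallest p per list and comparison and, for likeness, the 3 nearest genes per member; Lamc1, and Itga5 and Itgb8 in non-fibrillar collagen against Matrigel, were named as well, after their values were seen, to complete the called laminin and integrin chains.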

Additional observations from a re-analysis of the deposited data

How the results depend on the processing

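Every difference of the 7 genes kept its direction under all alternatives run; Itgb1 between the collagens turned from -0.03 to 0.0077 after quantile normalization again, with neither value called. The number of genes called between the collagens was 1277, and 2211 when only genes above the median level were tested, 168 at a threshold of 0.01 and 150 to 569 without 1 array. Of the 7 genes, 5 were called, with 1 at the threshold of 0.01 and 1 to 2 without 1 array. For fibrillar collagen against Matrigel the number of all genes was 762, and 460 with only 6 arrays in the fit, 1264 among genes above the median level, 239 at 0.01 and 353 to 513 without 1 array. For non-fibrillar collagen against Matrigel it was 2755, and 1419 at 0.01 and 1814 to 2492 without 1 array. With replicate number as a block the calls were 1285 between the collagens (970 shared with the fit without it), 1020 for fibrillar collagen against Matrigel and 3244 for non-fibrillar collagen against Matrigel. In the comparisons with Matrigel same-numbered arrays correlated by 0.097 to 0.25 and 0.045 to 0.14, and no label pairs these arrays either. Among the 7 genes the block ended the call of Cd151 between the collagens and changed no other call. The causes were not tested, apart from the fewer genes or arrays of those fits. All 7 genes lay above the median gene in mean signal; background readings were not used here.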
